A study of Homo sapiens with 6 samples.

Results

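Mitochondrial ribosomal proteins are the protein part of the ribosome inside mitochondria. The genes were chosen by symbol, MRPL for the large subunit or MRPS for the small subunit followed by a number, with pseudogenes left out. The array annotation names 77 of them. Of these, 75 have a probe set that matches no other gene, 48 large subunit and 27 small subunit genes, out of 19775 genes with such a probe set in the whole series. MRPL53 and MRPS24 share their probe sets with other genes and were not read. All 75 lay above the brightness filter and were tested among 12939 genes, so none was lost to it. The arrays compared MM1.S cells, an established human multiple myeloma line, after lentiviral infection with a beta-catenin shRNA vector (knockdown, 3 arrays) or with a pKLO GFP control vector (control, 3 arrays). Both groups carried GFP and were sorted for it, and the sorted cells of each were then grown as triplicate cultures. The labels describe no separate infections, so p-values measure only the spread between these cultures. How many hairpins were used, and their sequences, are not given in the sources used here, and an effect of a hairpin itself cannot be told apart from an effect of less beta-catenin RNA.

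The mitochondrial ribosome makes the few proteins that mitochondrial DNA still encodes, all of them core subunits of the respiratory chain and ATP synthase. Its ribosomal RNAs come from mitochondrial DNA, but every one of its proteins is encoded in the nucleus, made in the cytosol and imported. Many of these proteins descend from bacterial ribosomal proteins, while others are found only in mitochondria and surround the old core. The small subunit reads the messenger RNA, and the large subunit joins amino acids and guides the new chain out to the inner membrane. Of the 75 genes, 67 had a promoter sequence to read, and these lie on 20 chromosomes, so they share no single locus.

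The values are log2 levels of 1 probe set per gene, and a difference is knockdown minus control on that log2 scale. CTNNB1, which encodes beta-catenin, was read at 6.39, 6.53 and 6.34 in the knockdown arrays, against 7.82, 7.67 and 7.75 in the control arrays. The difference was -1.33 (SE 0.10, adjusted p = 9.04e-12, limma, n = 3 each), and the groups did not overlap. Of its 2 dimmer probe sets, 1 was called higher, by 0.33 (adjusted p = 0.0390 over all probe sets, limma), and the other differed by -0.07 and was not called. The 8 plasma cell markers examined were all above the filter, from CD38 at 7.20 in the knockdown and 6.81 in the control to JCHAIN at 11.98 in both. They also moved between the groups, in both directions: CD38, PRDM1 and MZB1 were called higher by 0.39, 0.51 and 0.82, IRF4, SDC1 and TNFRSF17 were called lower with differences of -0.23, -0.20 and -0.32, and JCHAIN and XBP1 were not called (limma). Of 6 T and NK cell markers only CD3D was above the filter, and it was not called. Of 3 myeloid markers read, CD14 was below the filter, LYZ read 6.72 in the knockdown and 6.74 in the control, and CSF1R read 5.83 in the knockdown and 5.52 in the control and was called higher (adjusted p = 0.0332, limma). Of 5 fibroblast markers, COL1A1, COL1A2, DCN and LUM were above the filter, from 5.83 to 8.01 in the knockdown and 5.84 to 7.91 in the control, and none was called. The part of these markers in the results was not tested. The medians of all probe sets were 5.50 to 5.54 on the knockdown arrays and 5.44 to 5.50 on the control arrays. Across all genes the comparison was broad: 47.3% of the 12939 genes passed an adjusted p of 0.05 in either direction.

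Most mitochondrial ribosomal protein genes fell in the knockdown. Of the 75 genes, 55 (73.3%) were called lower, where 22.0% of all genes tested were, and 4 (5.33%) were called higher, where 25.3% of all genes tested were. The other 16 passed in neither direction (limma, Benjamini-Hochberg adjustment over all 12939 genes). The median difference was -0.59, with quartiles of -0.82 and -0.23, while the median over all genes tested was 0.05, with quartiles of -0.21 and 0.27. Differences ran from -1.46 for MRPL11 to 0.28 for MRPL30, and 68 of the 75 lay below 0. The 3 knockdown arrays all lay below the 3 control arrays for 59 genes, an order seen in 24.5% of all genes tested, and all above them for 3 genes, against 29.9% of all genes tested. A fall of at least 2-fold was called for 9 members and for 3.39% of all genes tested. These are counts and medians of members chosen with earlier results known, and no test was made of the list itself. In bulk RNA, fewer transcripts per cell and fewer cells holding them cannot be told apart.

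**Figure D1:**
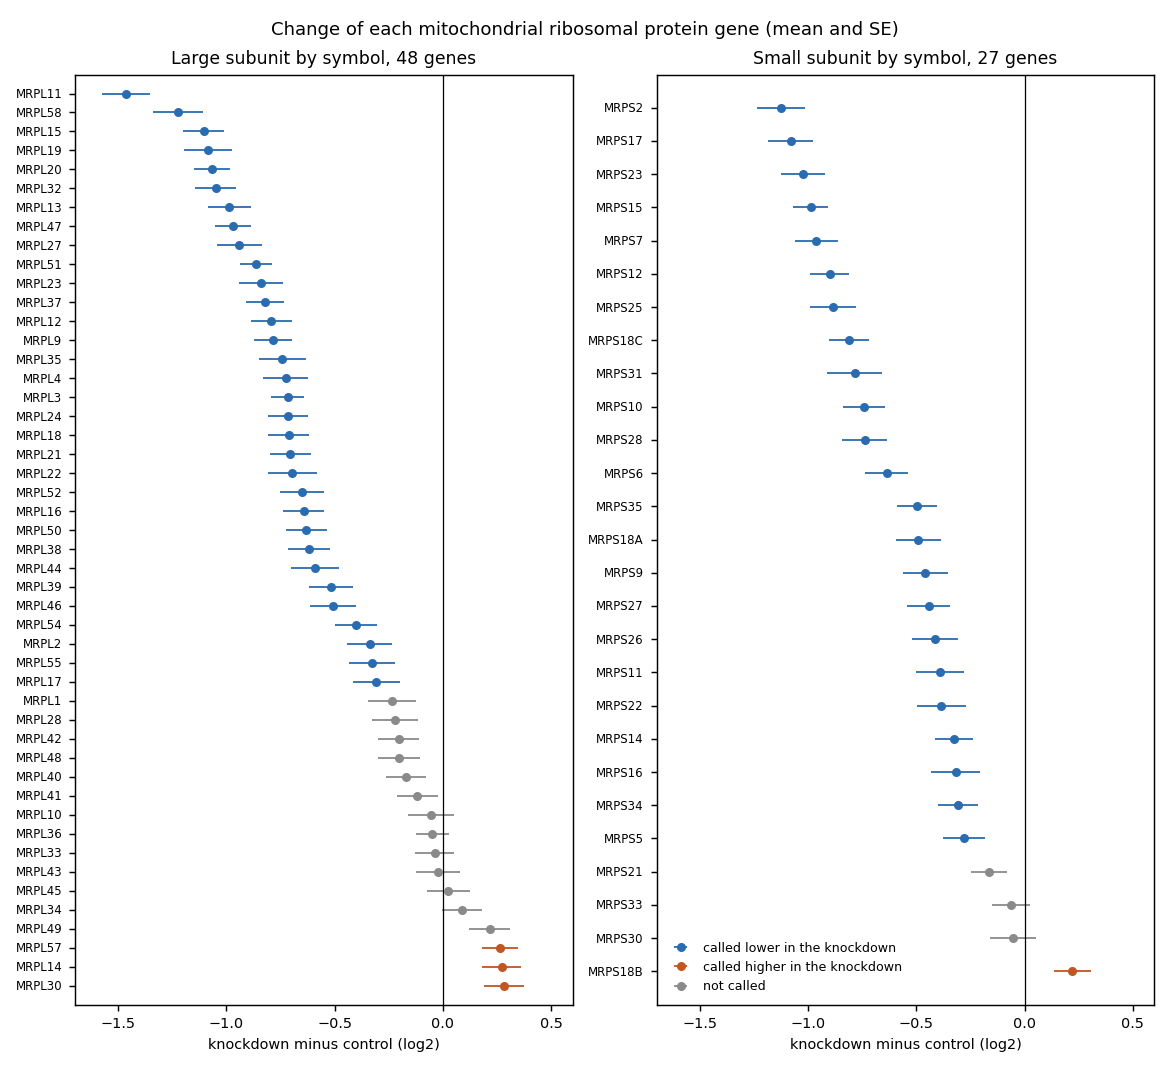
Log2 difference of each of the 75 genes between knockdown and control, with its standard error, for the large subunit (left panel, 48 genes) and the small subunit (right panel, 27 genes) by symbol. Colour marks the call, and 55 genes lie to the left as called lower while 4 are called higher, with differences of 0.22 to 0.28.

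The shift could be seen on every array. The median level over the 75 genes was 7.69, 7.79 and 7.70 on the knockdown arrays, against 8.46, 8.23 and 8.34 on the control arrays. Over all genes tested it was 6.70, 6.70 and 6.64 on the knockdown arrays and 6.66, 6.58 and 6.69 on the control arrays. The member medians of the groups therefore did not overlap, while the medians of all genes did. Control replicate 1 was the highest of its group for 67 of the 75 genes. Without it, 51 genes were called lower and 5 higher. The count called higher was also 1 without knockdown replicate 1, 1 without knockdown replicate 2 and 2 without control replicate 3. The control probe sets for ribosomal RNA were higher on every knockdown array than on any control array. They averaged 10.33, 10.52 and 11.01 in the knockdown arrays, against 8.58, 10.15 and 9.08 in the control arrays. The gap between the 3' and 5' probe sets of ACTB, a measure of RNA integrity, was 0.64, 0.56 and 0.54 in the knockdown and 0.89, 0.53 and 0.59 in the control. For GAPDH it was 0.26, 0.27 and 0.33 in the knockdown and 0.42, 0.18 and 0.13 in the control. Both gaps overlapped between the groups and were highest on control replicate 1. The part of these measures in the fall of the ribosomal protein genes was not tested.

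Promoter sequences are shown for the 2 genes of each subunit with the largest falls and for the 3 MRPS18 genes, which are paralogues with different readings. Each is the RefSeq sequence of 250 bases before and 50 bases after the gene's start in GRCh38.p14, read 5' to 3' on the gene's strand. MRPL11 is at chr11:66438799-66439098 on the minus strand, MRPL58 at chr17:75012420-75012719 on the plus strand, and MRPS2 at chr9:135500432-135500731 and MRPS17 at chr7:55951627-55951926, both on the plus strand. MRPS18A is at chr6:43687742-43688041 on the minus strand, MRPS18B at chr6:30617590-30617889 on the plus strand and MRPS18C at chr4:83455808-83456107 on the plus strand. Capitals mark matches, on either strand, to 4 motifs of factors known to bind promoters of mitochondrial genes or of growth genes: CCGGAAG for ETS factors such as GABPA, AAGATGG for YY1, GCATGCGC for NRF1 and the E-box CACGTG bound by MYC.
MRPL11: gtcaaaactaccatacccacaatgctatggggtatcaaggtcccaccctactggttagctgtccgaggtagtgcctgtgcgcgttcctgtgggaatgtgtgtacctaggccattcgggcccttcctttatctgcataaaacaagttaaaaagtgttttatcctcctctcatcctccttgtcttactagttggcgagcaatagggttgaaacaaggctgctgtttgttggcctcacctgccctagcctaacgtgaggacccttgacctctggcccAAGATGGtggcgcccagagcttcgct
MRPL58: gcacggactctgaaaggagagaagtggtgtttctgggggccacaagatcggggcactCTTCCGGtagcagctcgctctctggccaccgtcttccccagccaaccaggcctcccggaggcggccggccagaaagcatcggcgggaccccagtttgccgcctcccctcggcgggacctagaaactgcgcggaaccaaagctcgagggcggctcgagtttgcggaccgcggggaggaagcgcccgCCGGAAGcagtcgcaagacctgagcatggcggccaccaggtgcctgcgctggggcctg
MRPS2: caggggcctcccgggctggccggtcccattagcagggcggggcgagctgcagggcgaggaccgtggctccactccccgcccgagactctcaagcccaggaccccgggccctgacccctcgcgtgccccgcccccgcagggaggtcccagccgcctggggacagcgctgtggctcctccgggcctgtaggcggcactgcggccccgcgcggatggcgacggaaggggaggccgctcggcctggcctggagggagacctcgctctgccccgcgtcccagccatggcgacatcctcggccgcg
MRPS17: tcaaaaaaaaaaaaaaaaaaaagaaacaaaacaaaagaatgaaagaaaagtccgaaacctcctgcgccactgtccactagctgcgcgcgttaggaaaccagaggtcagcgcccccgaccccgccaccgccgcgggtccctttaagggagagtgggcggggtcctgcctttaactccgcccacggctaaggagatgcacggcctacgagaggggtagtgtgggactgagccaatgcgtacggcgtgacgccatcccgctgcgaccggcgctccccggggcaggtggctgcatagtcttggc
MRPS18A: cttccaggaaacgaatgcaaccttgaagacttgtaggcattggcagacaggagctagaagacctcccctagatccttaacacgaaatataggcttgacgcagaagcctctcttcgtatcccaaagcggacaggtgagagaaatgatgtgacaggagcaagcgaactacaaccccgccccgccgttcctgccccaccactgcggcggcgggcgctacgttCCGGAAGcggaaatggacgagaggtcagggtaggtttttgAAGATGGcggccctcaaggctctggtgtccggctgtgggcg
MRPS18B: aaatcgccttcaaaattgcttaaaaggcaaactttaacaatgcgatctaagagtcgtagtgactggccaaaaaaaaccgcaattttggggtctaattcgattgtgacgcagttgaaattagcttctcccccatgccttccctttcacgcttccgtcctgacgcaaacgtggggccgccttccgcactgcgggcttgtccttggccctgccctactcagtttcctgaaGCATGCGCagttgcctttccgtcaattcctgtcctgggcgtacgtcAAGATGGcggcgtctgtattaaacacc
MRPS18C: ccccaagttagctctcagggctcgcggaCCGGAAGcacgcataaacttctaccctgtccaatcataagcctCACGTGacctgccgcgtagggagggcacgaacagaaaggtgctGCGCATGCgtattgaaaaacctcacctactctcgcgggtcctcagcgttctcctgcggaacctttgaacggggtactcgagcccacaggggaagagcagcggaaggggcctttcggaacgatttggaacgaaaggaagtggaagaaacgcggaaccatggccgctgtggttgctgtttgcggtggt
The MRPL11 promoter held 1 YY1 match, which begins at base 275 of the 300 and so lies past the start. The MRPL58 promoter held an ETS match on each strand. The MRPS2 and MRPS17 promoters held none of the 4 motifs. A link between the motifs and the falls was not tested. MRPS18A had an ETS and a YY1 match, MRPS18B an NRF1 and a YY1 match, and MRPS18C an ETS, an E-box and an NRF1 match. No matches overlap in these sequences. A match describes the letters and does not show that a factor binds there.

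Promoters of 67 of the 75 genes were in the RefSeq table used. Those of MRPL2, MRPL10, MRPL13, MRPL15, MRPL21, MRPL23, MRPL35 and MRPS28 were not read. The ETS letters were present in 28 of the 67 (41.8%), against 24.0% of the promoters of genes called lower, 17.6% of those of all genes tested and 10.7% of all 27305 promoters in the table. The YY1 letters were present in 22 (32.8%), against 10.5% for genes called lower, 7.52% for genes tested and 6.06% for all promoters. The NRF1 letters were present in 6 (8.96%), against 6.56% for genes called lower, 5.04% for genes tested and 3.27% for all promoters. The E-box was also present in 6 (8.96%), against 11.4% for genes called lower, 9.76% for genes tested and 7.43% for all promoters. The E-box reads the same on both strands, and a whole palindromic NRF1 site can give a match on each strand. In 15 of the 67 (22.4%) the YY1 letters lay on the gene's own strand within the 50 bases after the start, against 3.47% of promoters of genes tested. These letters contain ATG, and whether the matches lie at the start of the coding sequence was not examined. Among the members, the ETS letters were in 41.7% of 48 promoters of genes called lower and in 42.1% of the 19 others, and the YY1 letters were in 33.3% of the first and 31.6% of the others. The NRF1 letters were in 10.4% of those called lower and 5.26% of the others, the E-box in 6.25% and 15.8%, and at least 1 of the motifs in 60.4% and 73.7%. No test was made on these shares.

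**Figure D2:**
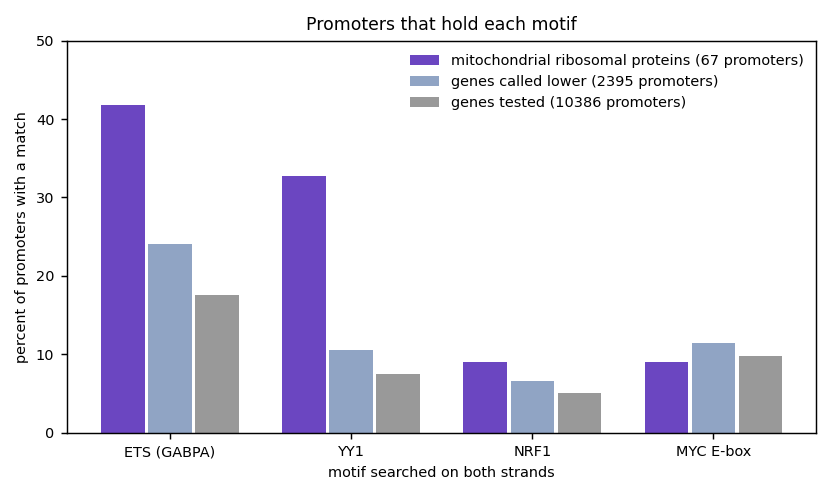
Percent of promoters that hold each motif on either strand, for the mitochondrial ribosomal protein genes (67 promoters), genes called lower (2395) and genes tested (10386). The bars for the ETS motif (41.8%), the YY1 motif (32.8%) and the NRF1 motif (8.96%) stand above those of both comparison sets, and the E-box bar (8.96%) stands below both.

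Both subunits were lower. By symbol, 32 of 48 large subunit genes (66.7%) and 23 of 27 small subunit genes (85.2%) were called lower, and 3 large subunit genes and 1 small subunit gene were called higher. The median difference was -0.62 for the large subunit and -0.49 for the small subunit. The median level of the large subunit genes was 7.82, 7.91 and 7.79 in the knockdown arrays, against 8.54, 8.32 and 8.44 in the control arrays. For the small subunit genes it was 7.47, 7.52 and 7.38 in the knockdown arrays, against 8.13, 8.14 and 8.15 in the control arrays. In both subunits every knockdown array was below every control array. The large subunit had the lower median and the smaller share of calls, and 13 of its genes passed in neither direction, against 3 of the small subunit. The difference between the subunits was not tested. Symbols and structures do not match fully: MRPS30 and MRPS18A are named for the small subunit but sit in the large one. Placed by structure, 33 of 50 large subunit genes and 22 of 25 small subunit genes were called lower, with medians of -0.60 and -0.50.

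**Figure D3:**
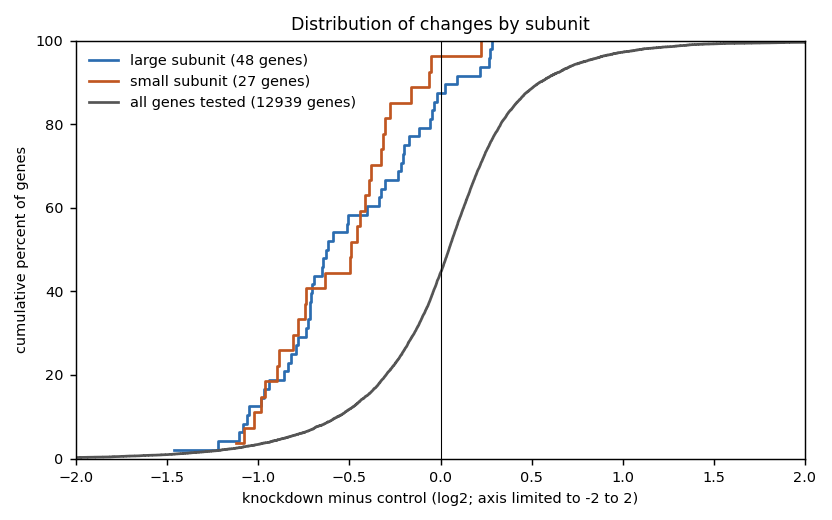
Cumulative percent of genes against the log2 difference, knockdown minus control, for large subunit genes, small subunit genes and all genes tested. Both subunit curves lie to the left of the curve of all genes, with medians of -0.62 and -0.49 against 0.05, and they cross each other.

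Genes of the bacterial core and genes classed as mitochondria-specific were both lower. Of 45 members with a bacterial homologue, 36 were called lower and 2 higher, with a median difference of -0.72. Of 30 mitochondria-specific members, 19 were called lower and 2 higher, with a median of -0.43. This class includes MRPS18A, called lower, and MRPS18B, called higher, although both descend from the gene for a bacterial protein. The same order held within each subunit as placed by structure: medians were -0.71 and -0.45 in the large subunit, and -0.74 and -0.43 in the small subunit. All of the 15 small subunit genes with a bacterial homologue had knockdown arrays below all control arrays, and 14 were called lower. The difference between these classes was not tested.

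The stalk of the large subunit recruits the elongation factors, and its genes differed. MRPL11, at the base of the stalk, read 6.68, 6.88 and 6.72 in the knockdown, against 8.46, 8.07 and 8.14 in the control. It fell by 1.46 on the log2 scale, 2.76-fold (SE 0.11, adjusted p = 3.32e-12, limma), the largest fall of the 75 genes. MRPL12, which in bacteria forms the flexible arms that touch the factors, read 7.83, 8.05 and 8.02 in the knockdown, against 8.88, 8.72 and 8.67 in the control. Its difference was -0.79 (adjusted p = 3.98e-08, limma). MRPL10, the scaffold that holds MRPL12 to the body, read 7.41, 7.43 and 7.38 in the knockdown, against 7.66, 7.29 and 7.44 in the control. The groups overlapped, and the difference of -0.06 had a 95% interval of -0.27 to 0.16. MRPL1, part of the opposite stalk where used tRNAs leave, had a difference of -0.23 that was not called (adjusted p = 0.0845, limma).

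Genes whose bacterial counterparts lie close to the peptidyl transferase centre were called lower. MRPL3 read 9.10, 9.12 and 9.05 in the knockdown, against 9.90, 9.68 and 9.85 in the control. The difference was -0.72 (SE 0.08, adjusted p = 5.77e-09, limma), and the arrays of the groups were well apart. MRPL27, which reaches toward the tRNA ends in bacteria, differed by -0.94, MRPL16 by -0.64 and MRPL2 by -0.34, each called lower. MRPL15, a protein of the subunit's core, read 8.19, 8.31 and 7.99 in the knockdown, against 9.42, 9.14 and 9.25 in the control. It fell by 1.10 (SE 0.09, adjusted p = 6.31e-11, limma). MRPL13 and MRPL20, whose bacterial counterparts join early in assembly, were called lower with differences of -0.99 and -1.06. MRPL20 read 8.41, 8.51 and 8.44 in the knockdown and 9.63, 9.45 and 9.47 in the control, with no overlap.

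MRPL19 and MRPL14 both lie on the face that meets the small subunit, and they moved in opposite directions. MRPL19 read 6.56, 6.68 and 6.38 in the knockdown, against 7.52, 7.53 and 7.82 in the control, a difference of -1.09 (SE 0.11, adjusted p = 2.80e-09, limma). When the probe sets of a gene were averaged, MRPL19 differed by -0.32 and MRPL20 by -0.26, still called lower. The dim probe sets that entered these averages lay below the filter and were not called. They differed by 0.20 and -0.07 for MRPL19, and by 0.24 and 0.04 for MRPL20. MRPL14 read 8.94, 9.12 and 9.03 in the knockdown, against 8.94, 8.66 and 8.67 in the control. It was called higher by 0.27 (SE 0.09, adjusted p = 0.0134, limma), although its lowest knockdown array and its highest control array were at the same level. The MRPL14 call rests on 1 probe set and was lost when arrays were centred on their medians (0.22, adjusted p = 0.0577, limma). It was also lost without knockdown replicate 2, control replicate 2 or control replicate 3 (adjusted p = 0.0776, 0.0521 and 0.0647, limma), and with no moderation of variances (adjusted p = 0.126, limma). MALSU1, the assembly factor that docks on MRPL14 and keeps the subunits apart, differed by -0.70 and was called lower.

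The exit of the large subunit passes new chains to the inner membrane. MRPL4 and MRPL22, whose bacterial counterparts line the tunnel, were called lower with differences of -0.73 and -0.70, and MRPL23, MRPL24 and MRPL47 at the tunnel mouth with differences of -0.84, -0.72 and -0.97. MRPL32, which a protease of the inner membrane trims before it joins the ribosome, read 8.14, 8.02 and 7.90 in the knockdown, against 9.21, 8.95 and 9.05 in the control. It fell by 1.05 (SE 0.09, adjusted p = 1.42e-10, limma), with no overlap. MRPL17, also near the exit in bacteria, read 7.29, 7.43 and 7.28 in the knockdown, against 7.84, 7.46 and 7.62 in the control. This difference of -0.31 was the one nearest to the threshold among large subunit genes called (adjusted p = 0.0197, limma), and it lost the call without knockdown replicate 1, knockdown replicate 3 or control replicate 1 (adjusted p = 0.0781, 0.0580 and 0.120, limma), and with no moderation of variances (adjusted p = 0.133, limma). MRPL45, which anchors the ribosome to the membrane, read 7.64, 7.73 and 7.71 in the knockdown and 7.75, 7.64 and 7.60 in the control. Its difference was 0.03, with a 95% interval of -0.17 to 0.23. The falls of the other exit genes named here lie outside that interval, but the MRPL17 interval of -0.53 to -0.09 overlaps it. No test was made between these genes. OXA1L, the insertase that takes chains from the exit, was called higher by 0.66 (adjusted p = 6.77e-07, limma).

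Genes of the central protuberance, where the large subunit meets the tRNAs and the head of the small subunit, were mixed. MRPL58, also known as ICT1, frees chains from stalled ribosomes. It read 6.00, 6.29 and 6.00 in the knockdown, against 7.51, 7.19 and 7.26 in the control. It fell by 1.22, 2.33-fold (SE 0.12, adjusted p = 4.46e-10, limma), with all knockdown arrays below all control arrays. MRPL18, MRPL38, MRPL46 and MRPL55 were called lower with differences of -0.71, -0.62, -0.51 and -0.33. MRPL48 and MRPL40 differed by -0.20 and -0.17 and were not called (adjusted p = 0.0858 and 0.128, limma).

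The other large subunit genes covered the whole range. MRPL51, a mitochondria-specific protein, read 9.64, 9.60 and 9.67 in the knockdown, against 10.68, 10.45 and 10.35 in the control. It fell by 0.86 (SE 0.07, adjusted p = 5.80e-11, limma), and no arrays overlapped. MRPL9, MRPL21, MRPL35, MRPL37, MRPL39, MRPL44, MRPL50, MRPL52 and MRPL54 were also called lower, with differences from -0.82 for MRPL37 to -0.40 for MRPL54. MRPL36, a short zinc-binding protein of bacterial origin, read 9.67, 9.85 and 9.76 in the knockdown, against 9.96, 9.74 and 9.73 in the control. The groups overlapped, and the difference of -0.05 had a 95% interval of -0.21 to 0.11. MRPL33, MRPL34 and MRPL43 had differences of -0.04, 0.09 and -0.02, and MRPL28, MRPL41 and MRPL42 of -0.22, -0.12 and -0.20, none of them called. MRPL49 read 8.36, 8.48 and 8.43 in the knockdown, against 8.37, 8.13 and 8.12 in the control. Its difference of 0.22 was the nearest to the threshold among genes not called (adjusted p = 0.0600, limma), and 1 knockdown array lay below 1 control array. Without control replicate 1 it was called higher (0.30, adjusted p = 0.00650, limma). It was also called higher under quantile normalization, cyclic loess, a stricter filter and averaging of probe sets. Under the other settings tried MRPL49 was not called.

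**Figure D4:**
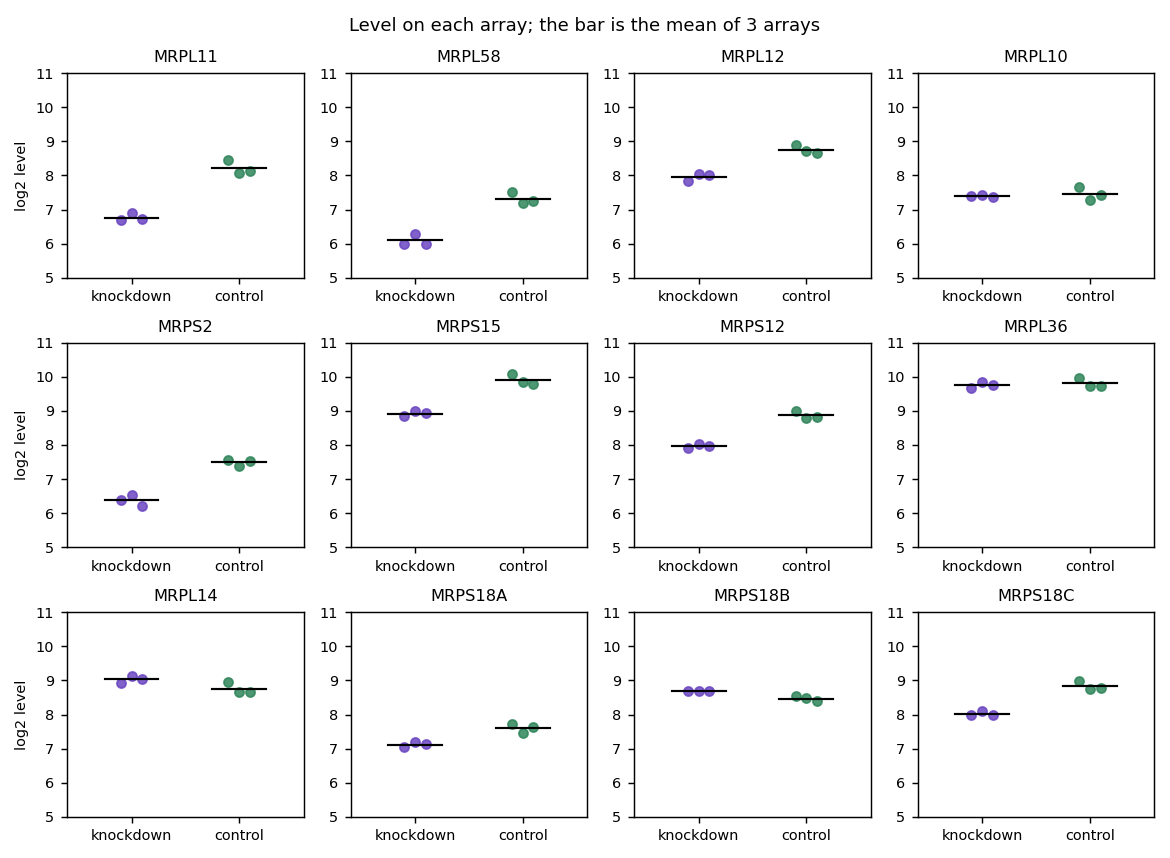
Log2 level of 12 members on each array, with 3 knockdown arrays left and 3 control arrays right in each panel and a bar at the mean. Each gene is read by its own probe set, so levels compare groups within a panel only. MRPL11 and MRPL58 are separated by more than the spread of either group, MRPL10 and MRPL36 overlap, and MRPL14 and MRPS18B lie slightly higher in the knockdown.

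In the small subunit most decoding and platform genes were called lower. MRPS12, whose bacterial counterpart monitors the match of codon and tRNA, read 7.91, 8.04 and 7.97 in the knockdown, against 9.00, 8.81 and 8.82 in the control. It fell by 0.90 (SE 0.09, adjusted p = 1.66e-09, limma), with no overlap. MRPS2, between head and body, read 6.39, 6.54 and 6.20 in the knockdown, against 7.57, 7.39 and 7.54 in the control. It fell by 1.12, 2.18-fold, the largest fall of the small subunit (SE 0.11, adjusted p = 9.91e-10, limma). MRPS11 and MRPS6, platform proteins in bacteria, were called lower with differences of -0.39 and -0.64. MRPS5, near the entry of the messenger in bacteria, was called lower with a difference of -0.28, and MRPS28, a relative of a bacterial messenger-binding protein, with one of -0.74. MRPS21 had a difference of -0.16 and was the nearest to the threshold among small subunit genes not called (adjusted p = 0.111, limma).

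Proteins that bind the small ribosomal RNA directly, and in bacteria start its folding, were also lower. MRPS15 read 8.85, 8.99 and 8.93 in the knockdown, against 10.07, 9.86 and 9.80 in the control. It fell by 0.99 (SE 0.08, adjusted p = 2.17e-11, limma), and the groups were far apart. A dimmer probe set of MRPS15, without the array maker's mark for shared probes, differed by -0.22 and was not called in its place (adjusted p = 0.113, limma). The other dimmer MRPS15 probe sets differed by -0.99 and -0.76. Both were called lower (adjusted p = 4.58e-06 and 0.000199 over all probe sets, limma). MRPS17 read 7.37, 7.47 and 7.23 in the knockdown, against 8.62, 8.29 and 8.39 in the control, a difference of -1.08 (SE 0.10, adjusted p = 6.08e-10, limma). MRPS7, which organises the head, read 7.57, 7.76 and 7.70 in the knockdown, against 8.83, 8.52 and 8.58 in the control, a difference of -0.96 (SE 0.10, adjusted p = 2.45e-09, limma). Neither gene had overlapping groups. The head proteins MRPS9, MRPS10 and MRPS14 were called lower with differences of -0.46, -0.74 and -0.33, and MRPS16 of the body with one of -0.32. For MRPS10 the size of the fall depended on the probe set. A probe set of nearly equal brightness differed by -0.07 and was not called (adjusted p = 0.624 over all probe sets, limma). The dimmest MRPS10 probe set differed by -0.81 and was called lower (adjusted p = 5.17e-05 over all probe sets, limma).

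Among small subunit proteins found only in mitochondria, MRPS23 fell most. It read 7.30, 7.40 and 7.18 in the knockdown, against 8.44, 8.18 and 8.34 in the control, a difference of -1.02 (SE 0.10, adjusted p = 1.06e-09, limma), with no overlap. MRPS22, MRPS25, MRPS26, MRPS27, MRPS31, MRPS34 and MRPS35 were called lower, with differences from -0.88 for MRPS25 to -0.31 for MRPS34. Variants in several of these genes, such as MRPS22 and MRPS34, are known causes of inherited disorders of the respiratory chain. MRPS33 read 9.11, 9.12 and 9.04 in the knockdown, against 9.36, 9.00 and 9.10 in the control. The groups overlapped, and the difference of -0.06 had a 95% interval of -0.24 to 0.12. MRPS30, which sits in the large subunit, had a difference of -0.05 and was not called.

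The 3 MRPS18 genes descend from the gene for 1 bacterial protein but encode proteins at different places. MRPS18C holds the bacterial place on the platform and read 7.98, 8.11 and 7.99 in the knockdown, against 8.99, 8.76 and 8.77 in the control. It fell by 0.81 (SE 0.09, adjusted p = 1.82e-08, limma). MRPS18A, built into the large subunit, read 7.04, 7.20 and 7.12 in the knockdown, against 7.72, 7.47 and 7.64 in the control. It fell by 0.49 (SE 0.10, adjusted p = 0.000241, limma). Both had groups that did not overlap and were called lower by every probe set above the filter. MRPS18B, at a further site of the small subunit, read 8.70, 8.69 and 8.68 in the knockdown, against 8.55, 8.47 and 8.38 in the control. It was called higher by 0.22 (SE 0.09, adjusted p = 0.0364, limma), the only small subunit gene so called. That call was lost without any 1 of the 3 knockdown arrays, under centring on array medians (0.17, adjusted p = 0.123, limma) and without an intensity trend (adjusted p = 0.0645, limma). A second MRPS18B probe set of nearly equal brightness was higher by 0.57 (adjusted p = 0.000256 over all probe sets, limma).

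Different probe sets of a gene did not always give the same call. The 75 genes have 140 probe sets, of which 78 were called lower and 6 higher when all 54613 probe sets were tested. Of all probe sets, 9.95% were called lower and 13.3% higher, but these include the dim ones, and 120 of the 140 lay above the filter. Of 29 genes with more than 1 probe set above it, 11 were called lower by every one and 21, these included, by at least 1 with none higher. MRPL4 was one of those called by every probe set, at -0.73, -0.79 and -0.76, and MRPS22 another, with 4 probe sets between -0.38 and -0.44. All 4 MRPS22 probe sets carry the array maker's mark for probes that may also bind other transcripts. MRPL30, MRPL57 and MRPS14 had probe sets called in opposite directions. MRPL42, not called by its brightest probe set at -0.20, had 2 dimmer ones at 0.01 and 0.36, and the last was called higher (adjusted p = 0.0398 over all probe sets, limma).

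The largest rise came from a gene whose probe sets disagreed. MRPL30, a small protein of bacterial origin, read 8.46, 8.48 and 8.45 in the knockdown, against 8.30, 8.18 and 8.06 in the control by its brightest probe set. It was called higher by 0.28 (SE 0.09, adjusted p = 0.0123, limma), with no overlap. The call was lost without knockdown replicate 1 or control replicate 3 (adjusted p = 0.0528 and 0.0910, limma). Its 4 dimmer probe sets had differences of -0.47, -0.29, -0.41 and -0.64, of which 3 were called lower. MRPL57, a mitochondria-specific protein of the large subunit, read 9.05, 9.14 and 8.91 in the knockdown, against 8.82, 8.73 and 8.76 in the control by its brightest probe set. It was called higher by 0.26 (SE 0.08, adjusted p = 0.0114, limma), while its other probe sets differed by -0.26, -0.27 and -0.22, with the first of these called lower. The MRPL57 call was lost without knockdown replicate 1 or 2 (adjusted p = 0.0573 and 0.0902, limma) and with no moderation of variances (adjusted p = 0.0588, limma). The brightest probe set of both genes carries the array maker's mark for probes that may also bind other transcripts. The probe sets read for MRPL35, MRPL51, MRPS10 and MRPS22, all called lower, carry the mark too. The part of such probes in any of these calls was not tested. MRPS14 read 8.97, 9.01 and 8.89 in the knockdown, against 9.47, 9.21 and 9.17 in the control by its bright probe set, a difference of -0.33 (SE 0.09, adjusted p = 0.00237, limma). With no moderation of variances that call was lost (adjusted p = 0.0770, limma). Its dim probe set was higher by 0.46. The direction of these 3 genes therefore depends on the probe set read, and no sequence of the probes was examined.

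**Figure D5:**
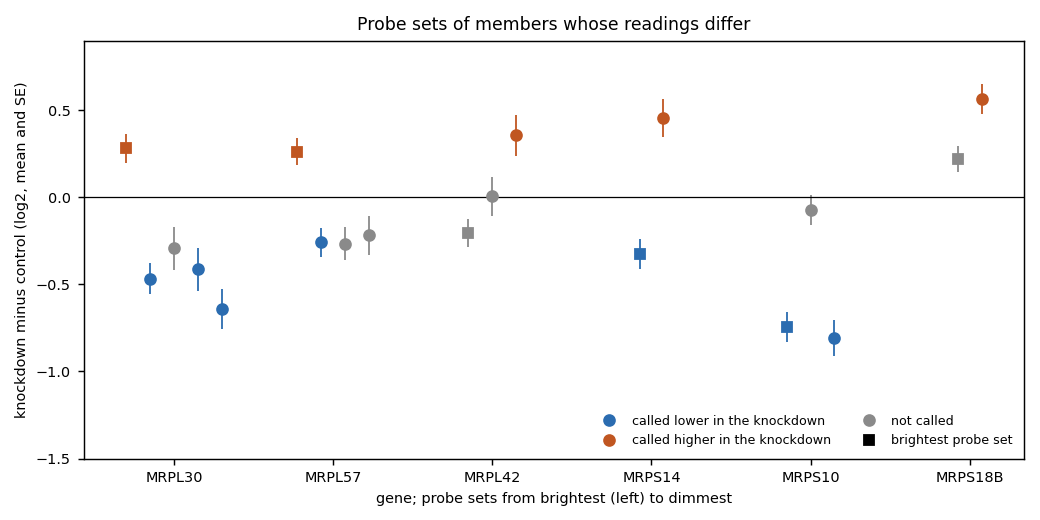
Difference of every probe set of 6 members, as log2 level in knockdown less control, with its standard error, ordered from brightest to dimmest within a gene. Squares are the probe sets read for the gene, and colours are calls over all 54613 probe sets, where the brightest MRPS18B probe set just misses (adjusted p = 0.0513, limma). MRPL30 and MRPL57 have a brightest probe set above 0 and all others below, MRPS14 the opposite, and MRPS18B both above 0.

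Of 4 genes tested for proteins of the same ribosome that carry other names, 3 were called lower. GADD45GIP1, a large subunit protein, fell by 0.82 (adjusted p = 1.78e-07, limma), and the small subunit proteins PTCD3 and CHCHD1 were called lower with differences of -0.46 and -0.37. DAP3, a GTP-binding small subunit protein, differed by 0.22 and was not called (adjusted p = 0.0599, limma). Of 32 genes for assembly and RNA modification tested, 10 were called lower and 4 higher, with a median of -0.14. RPUSD4, which makes pseudouridine in the large ribosomal RNA, differed by -0.74, and YBEY, an endonuclease of small subunit assembly, by 0.60. LONP1, a protease of the mitochondrial matrix in the same list, was called higher by 0.94 (adjusted p = 4.83e-11, limma). Of 17 translation factors, 7 were called lower and 2 higher, with a median of -0.16. TUFM, the elongation factor that brings tRNAs to the ribosome, fell by 0.75 (adjusted p = 3.57e-09, limma). MTFMT, which prepares the initiator tRNA, and PUS1, which modifies tRNAs, were called lower with differences of -0.57 and -0.47.

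Counts for the respiratory chain and the cytosolic ribosome stand beside those of the mitochondrial ribosomal proteins. Of 69 nuclear-encoded respiratory chain and ATP synthase genes tested, 57 (82.6%) were called lower and 5 higher, with a median of -0.48. Those with the smallest adjusted p were ATP5MC1 and ATP5MG of ATP synthase and COX6A1 of cytochrome c oxidase, with differences of -1.63, -1.43 and -0.78, and NDUFS6 of complex I, which averaged 9.56 in the knockdown and 10.56 in the control. Of 56 cytosolic ribosomal protein genes tested, 18 (32.1%) were called lower and 12 higher, with a median of -0.04. Those with the smallest adjusted p were RPS27L, RPS12, RPL41 and RPS3, with differences of -1.24, -0.64, -0.35 and -0.33. The median level of the cytosolic group was 12.31, 12.29 and 12.33 in the knockdown arrays and 12.37, 12.32 and 12.32 in the control arrays. No test was made between these groups.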

How the data were processed

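The 6 arrays measured total RNA of MM1.S cells, 3 per group, and groups and replicate numbers came from the sample titles. The values deposited by the authors are log2 levels for 54675 probe sets. They stop at a floor of 4, read from the values as an offset of 16, which understates changes of dim probe sets. MAS5 and PLIER appear in the submitters' processing notes without versions or roles, and no source used here gives the array normalization. Labels that speak of embryos were not used.

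Members and gene lists were chosen with earlier results of these data known. Each gene was read by its brightest probe set with 1 symbol in the platform annotation and tested if the mean over 6 arrays reached the median of all non-control probe sets (5.49). Tests used limma 3.58.1 in R 4.3.3 with an intensity trend, two-sided, with a Benjamini-Hochberg threshold of 0.05. Named genes were, per subunit, the 6 largest falls, the called rises, the 3 brightest, those with probe sets called in opposite directions and those nearest the threshold. Of each related list, up to 4 called genes were named, and others were chosen by role. The number of arrays limits precision: on simulated data with 12939 genes, 46 of 50 changes of -1 and 22 of 50 of -0.5 were recovered. Far fewer genes changed there than the 47.3% called in the data, and spreads were shuffled among genes. These shares are therefore not recovery rates for this comparison. Alternatives changed normalization, filter, probe set choice, offset, moderation, the replicate block and the replicates used.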

Additional observations from a re-analysis of the deposited data

How the results depend on the processing

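The call of most members as lower did not depend on a setting tried: between 45 (no moderation of variances) and 60 (cyclic loess, or centring on array medians) were called lower, and 51 to 57 when 1 array was left out. The count called higher, 4, was 2 under centring, 2 with no moderation and 1 to 5 with 1 array left out. The median of all genes tested became -0.0093 under centring. With a replicate block, which the data do not bear out as a pairing (correlations of same-numbered arrays -0.09, -0.26 and -0.30), 53 members were called lower and 3 higher, MRPS18B lost its call (adjusted p = 0.119, limma) and so did MRPL17 (0.0505). Averaging probe sets gave -0.31 for MRPL30, -0.12 for MRPL57 and 0.066 for MRPS14. Putting probe sets without the array maker's marks for shared probes first gave -0.47 for MRPL30 and 0.46 for MRPS14. Only 71 members were tested under that setting. Without control replicate 1, MRPL36 turned to 0.027 and MRPS33 to 0.040; over all arrays left out in turn they ran from -0.10 to 0.03 and from -0.14 to 0.04. Of 407 values of 24 named members, 370 kept direction and side of the threshold, 23 lost it, 7 gained it and 7 turned. Apart from the probe set choice, the causes were not tested. An offset of 64 in place of 16 moved the median of the members to -0.43.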

Other observations

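Differences of members whose promoter held a motif stand here beside those of members without it, with no test. The median difference was -0.62 for the 22 with the YY1 letters and -0.46 for the others, and -0.55 with the ETS letters and -0.51 without. It was -0.67 with the NRF1 letters and -0.50 without, and -0.37 with the E-box and -0.51 without. In the large subunit, the 5 genes with an E-box had a median of -0.05 and the others -0.60, a contrast picked after its values were seen and not tested. Over the 75 genes, the Spearman correlation of control level and difference was -0.16, as a description across genes read by different probe sets.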
